A study of Homo sapiens with 24 samples.

Results

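The line-by-chase interaction asks, for each gene, whether its mRNA level changed differently over 6 h of chase in a HEK293 line overexpressing ZC3H7B than in the matching control line. It used 12 of the 24 libraries of the series, 3 in each of 4 groups: ZC3H7B-OE at 6 h, ZC3H7B-OE at 0 h, control at 6 h and control at 0 h. HEK293 is an established human embryonic kidney line. The genotype labels are Flag-HA/ZC3H7B-Overexpression for the ZC3H7B line and Flag/HA overexpression for the control, so both carry the tag. Both lines received 100 µM 4-thiouridine and 1 µg/mL doxycycline over 24 h, with fresh medium each 6 h during this pulse, and after a wash the chase with 10 mM uridine lasted 0 or 6 h. The interaction is the log2 change in ZC3H7B-OE (6 h minus 0 h) minus the log2 change in control (6 h minus 0 h). A value above 0 therefore means a larger rise, or a smaller fall, in ZC3H7B-OE. Poly(A) RNA was sequenced, and all reads of a gene, with or without T>C conversions, entered the main comparison. Whether each line is 1 clone is not given in the sources used here.

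ZC3H7B is an RNA-binding protein with CCCH-type zinc fingers, and the series concerns its action on translation and mRNA stability through codons. In human cells, codons that end in G or C have been linked to more stable mRNAs, and codons that end in A or U to less stable ones. The share of codons ending in G or C, called GC3, is a simple measure of this bias. In SLAM-seq, 4-thiouridine enters new RNA during the pulse and is read as C after alkylation. Reads with conversions mark RNA made during the pulse, and the chase lets them be replaced by unlabelled RNA.

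With all 12 libraries, 18 of 9580 genes passed for the interaction (edgeR's quasi-likelihood test, adjusted p under 0.05), which is 0.188% of the genes tested. All 18 lay above 0, and 0 lay below. At an unadjusted p under 0.05 there were 1036 genes above 0 and 287 below. Control 0 h replicate 3 stood apart from its group (values below), and the comparison was also made on the other 11 libraries. This repeat called 451 of 10153 genes (4.44%), of which 377 lay above 0 (3.71%) and 74 below (0.729%). All 18 genes of the first count were among the 451. With all 24 libraries in 1 fit, 253 of 10038 genes passed (2.52%), 224 above 0 (2.23%) and 29 below (0.289%), and 244 genes were in both this count and the 451 (96.4% of the 253 and 54.1% of the 451).

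The 18 genes had coding sequences poor in G and C at the third codon position. Their median GC3 was 40.9%, and all 18 lay below the median of the tested genes, which was 59.2%. The last 30 codons before the stop codon are shown for 5 genes to make this visible. HAUS3, a subunit of the augmin complex of the spindle, and MOB1A, an activator of LATS kinases in the Hippo pathway, are 2 of the 18. RAP2B, a Ras-related GTPase, and GAS1, a membrane protein that binds Hedgehog ligands, lay below 0 and were called in the repeat, as was VCL, which encodes vinculin and had the smallest adjusted p of that direction. The 5 were picked after their values were seen, and the sequences are from GENCODE v29 transcripts. Capitals mark A or T at the third position of a codon, and there are 25, 21, 19, 3 and 3 of them in the 5 stretches, in the order shown.
HAUS3: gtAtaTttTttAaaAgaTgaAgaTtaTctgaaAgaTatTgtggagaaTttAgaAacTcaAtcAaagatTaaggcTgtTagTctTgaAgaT
MOB1A: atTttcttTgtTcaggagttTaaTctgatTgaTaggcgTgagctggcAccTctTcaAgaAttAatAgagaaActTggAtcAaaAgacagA
VCL: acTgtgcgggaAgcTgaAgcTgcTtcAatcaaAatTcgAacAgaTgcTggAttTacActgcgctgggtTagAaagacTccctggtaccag
RAP2B: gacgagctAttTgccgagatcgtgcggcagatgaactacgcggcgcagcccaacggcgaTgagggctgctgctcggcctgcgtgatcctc
GAS1: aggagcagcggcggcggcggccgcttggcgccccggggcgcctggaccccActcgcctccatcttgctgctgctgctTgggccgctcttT
HAUS3 lies on chromosome 4, MOB1A on chromosome 2, VCL on chromosome 10, RAP2B on chromosome 3 and GAS1 on chromosome 9. Over the whole coding sequence their GC3 was 30.5% for HAUS3, 39.2% for MOB1A, 52.8% for VCL, 91.8% for RAP2B and 92.8% for GAS1. RAP2B and GAS1 lie near the upper end of the 74 genes called below 0 in the repeat, of which 72 had a value, with a median of 67.7% and a range from 34.2% to 92.8%. Of these, 17 lay below 59.2%, the median of the genes tested with 12 libraries, as VCL does.

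The libraries differed in depth by time and 1 of them differed from its replicates. ZC3H7B-OE held 2767623 to 3568508 reads per library at 6 h and 1661392 to 2053311 at 0 h, and control held 2851246 to 3676254 at 6 h and 1502068 to 2026269 at 0 h. Control 0 h replicate 3 had reads in 11032 genes (12005 to 13182 in the other 11 libraries), 10.7% of its reads in its top 10 genes (3.56% to 7.61% in the others) and a TMM factor of 0.797 (0.958 to 1.06). Its mean correlation with its own group was 0.911, against 0.940 to 0.982 in the others. In summed TMM-scaled CPM, epithelial markers (12 of 13 with a read) ran from 274 to 283 in ZC3H7B-OE and 281 to 343 in control at 6 h, and from 283 to 365 in ZC3H7B-OE and 347 to 814 in control at 0 h. Leukocyte markers (7 of 13) ran from 60.6 to 65.8 in ZC3H7B-OE and 43.2 to 53.1 in control at 6 h, and from 109 to 127 in ZC3H7B-OE and 84.6 to 249 in control at 0 h. Neuronal and adrenal lineage markers (17 of 20) ran from 825 to 886 in ZC3H7B-OE and 708 to 728 in control at 6 h, and from 1459 to 1588 in ZC3H7B-OE and 1328 to 4171 in control at 0 h. Control 0 h replicate 3 held the highest of these 3 sums. At 0 in all 12 libraries were 1 of 13 epithelial markers (CDH1) and 6 of 13 leukocyte markers (CD3D, CD3E, LCP2, MS4A1, PTPRC and TYROBP). The same held for 3 of 20 neuronal and adrenal markers (CYP11A1, ELAVL4 and TH). The other members of these lists had reads, and their single levels are not given here. Fibroblast markers summed to at most 6.66 CPM. The part of these markers in the results was not tested.

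The overexpressed gene itself was not called for the interaction. ZC3H7B had 258, 252 and 270 CPM (read counts scaled to a common library size with edgeR's TMM factors) in ZC3H7B-OE and 195, 217 and 199 CPM in control at 6 h. At 0 h it had 436, 447 and 394 CPM in ZC3H7B-OE, against 337, 347 and 175 CPM in control, the lowest being replicate 3. ZC3H7B-OE lay above control in every library at both times, and both lines had lower means at 6 h than at 0 h. The line difference passed the test at 0 h (log2 0.57, edgeR adjusted p = 0.0406) and not at 6 h (log2 0.35, edgeR adjusted p = 0.253). In the repeat it passed at both times, with 0.32 at 6 h (SE 0.09, edgeR adjusted p = 0.00589) and 0.30 at 0 h (SE 0.10, edgeR adjusted p = 0.025). The interaction was -0.21 (SE 0.27, edgeR adjusted p = 0.769) and 0.01 (SE 0.14, edgeR adjusted p = 0.982) without control 0 h replicate 3. Its paralog ZC3H7A gave 0.26 (SE 0.31, edgeR adjusted p = 0.745).

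The 18 called genes shared 1 course. All 18 were called lower in ZC3H7B-OE than in control at 0 h, where 17% of all genes were. All 18 had a gap between the lines of more than 1.5-fold at 0 h and none at 6 h, a pattern that 2725 of all 9580 genes had in either direction (28.4%). Their median difference, ZC3H7B-OE minus control, was -0.15 at 6 h and -1.51 at 0 h on the log2 scale, against 0.05 and -0.04 over all genes tested. Their median change from 0 h to 6 h was 2.51 in ZC3H7B-OE and 1.13 in control. The rise passed the test for 18 of 18 in ZC3H7B-OE and for 14 of 18 in control, or 16 of 18 in control without control 0 h replicate 3. Over all genes tested, the chase response passed for 62.4% in ZC3H7B-OE (33.7% higher, 28.7% lower) and for 59.8% in control (31.2% higher, 28.6% lower). These 4 sets of values are the ones that make up the interaction, so they describe its shape and are no separate evidence for it. Only relative abundance was measured, and a gene's rise in these units cannot be told apart from a loss of other mRNAs.

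UHMK1, a serine/threonine kinase with an RNA-recognition-like domain, had one of the smallest adjusted p-values. At 6 h it had 1027, 920 and 814 CPM in ZC3H7B-OE, against 821, 930 and 973 CPM in control. At 0 h it had 95.1, 107 and 93.2 CPM in ZC3H7B-OE, against 217, 242 and 218 CPM in control. The lines overlapped at 6 h and were separate at 0 h, and control 0 h replicate 3 lay between its replicates. The interaction of UHMK1 was 1.22 (SE 0.19, edgeR adjusted p = 0.0256), and 1.22 (SE 0.15, edgeR adjusted p = 1.68e-07) without that library. Mean levels at 6 h were 9.35-fold those at 0 h in ZC3H7B-OE and 4.02-fold in control.

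SCML2, a Polycomb group protein, had the highest interaction of the called genes after SLC46A3, which is described further on. It had 223, 246 and 194 CPM in ZC3H7B-OE and 278, 247 and 287 CPM in control at 6 h. At 0 h the levels were 19.4, 19.6 and 18.9 CPM in ZC3H7B-OE, against 72.3, 68.4 and 105 CPM in control. ZC3H7B-OE lay below control without overlap at both times, with the wider gap at 0 h. The interaction of SCML2 was 1.78 (SE 0.26, edgeR adjusted p = 0.0256).

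MOB1A, introduced above with its sequence, had 692, 727 and 660 CPM in ZC3H7B-OE, against 975, 882 and 920 CPM in control at 6 h. Its 0 h levels were 101, 95.6 and 108 CPM in ZC3H7B-OE, against 284, 292 and 401 CPM in control. The lines were separate at both times. UBQLN1, a shuttle protein that brings ubiquitinated proteins to the proteasome, had 353, 375 and 395 CPM in ZC3H7B-OE and 403, 337 and 383 CPM in control at 6 h. It had 78.0, 76.9 and 62.7 CPM in ZC3H7B-OE and 169, 157 and 181 CPM in control at 0 h. The interaction was 1.26 (SE 0.20) for MOB1A and 1.22 (SE 0.20) for UBQLN1, each with an edgeR adjusted p of 0.0256.

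RAB10, a small GTPase of vesicle transport to the plasma membrane, had 445, 500 and 508 CPM in ZC3H7B-OE and 571, 490 and 519 CPM in control at 6 h. At 0 h it had 80.9, 82.5 and 62.1 CPM in ZC3H7B-OE, against 170, 186 and 280 CPM in control. Its interaction was 1.37 (SE 0.25, edgeR adjusted p = 0.0431), with 1.10 in the repeat. RAB10 thus overlapped between the lines at 6 h and not at 0 h, and control 0 h replicate 3 held its highest 0 h level. That library was the highest of the control 0 h group for 16 of the 18 genes and the lowest for 0. This order was not counted over all genes, so it is not read as a trait of the 18. The interactions of the 18 ran from 0.88 to 3.85 without that library, against 1.02 to 3.78 with it.

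ZNF207, a spindle assembly factor that binds BUB3, was the only 1 of the 18 with every ZC3H7B-OE library above control at 6 h. It had 1109, 1013 and 902 CPM in ZC3H7B-OE and 552, 847 and 731 CPM in control at 6 h, and 207, 186 and 150 CPM in ZC3H7B-OE and 276, 299 and 416 CPM in control at 0 h. The order of the lines was thus reversed between the times. The difference passed the test at 0 h (log2 -0.86, edgeR adjusted p = 0.00361) and not at 6 h (log2 0.51, edgeR adjusted p = 0.0883). The interaction of ZNF207 was 1.37 (SE 0.26, edgeR adjusted p = 0.0439).

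For TMEM123, MTPN, TSPAN12 and SLC46A3 the rise passed the test in ZC3H7B-OE and not in control with all 12 libraries. In the repeat it did not pass in control for TMEM123 (log2 0.19, edgeR adjusted p = 0.109) and SLC46A3 (log2 0.46, edgeR adjusted p = 0.309), and it passed for MTPN and TSPAN12. The control change of TSPAN12 was 0.83 (edgeR adjusted p = 8.1e-09) in the repeat and 0.39 (edgeR adjusted p = 0.131) with all 12 libraries. TMEM123, a cell-surface mucin-like receptor, had 386, 442 and 375 CPM in ZC3H7B-OE and 578, 428 and 485 CPM in control at 6 h, and 180, 170 and 140 CPM in ZC3H7B-OE and 465, 424 and 562 CPM in control at 0 h. Its chase change was 1.29 in ZC3H7B-OE and 0.04 in control on the log2 scale, and the control value did not pass (edgeR adjusted p = 0.841). MTPN, which encodes myotrophin, a small ankyrin-repeat protein, had 1144, 1195 and 1124 CPM in ZC3H7B-OE and 1723, 1569 and 1756 CPM in control at 6 h. At 0 h MTPN had 373, 449 and 379 CPM in ZC3H7B-OE, against 1144, 1126 and 1766 CPM in control. With 12 libraries MTPN was the 1 gene of the 18 whose line difference also passed at 6 h, with a log2 of -0.54 (edgeR adjusted p = 0.0409), where 5.85% of all genes were called lower. In the repeat, 8 of the 18 passed at 6 h, all lower in ZC3H7B-OE, where 16.8% of all genes were called lower. These were MTPN, MOB1A, PAWR, C5orf24, NUDT21, TMEM123, SCML2 and HAUS3. Leaving out control 0 h replicate 3 raised the control change of MTPN to 0.60, which then passed, against 0.32 with that library.

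The other genes named by the rule had the same course. TSPAN12, a tetraspanin of Norrin and Frizzled signalling, and FZD3, a Wnt receptor, had interactions of 1.65 and 1.63. HAUS3 gave 1.57, RRP15, a factor of ribosomal RNA processing, gave 1.42, and TROVE2, the RNA-binding Ro60 protein, gave 1.36. The edgeR adjusted p of these 5 ran from 0.0308 to 0.0478, the last for TROVE2, the gene nearest to the threshold. SPIN1, a reader of histone methylation, stood just outside it with 1.14 and an edgeR adjusted p of 0.0593. The remaining called genes were PAWR, NUDT21, PTPLB, C5orf24, MTPN and SLC46A3, and naming those beyond the rule was decided after their values were seen. NUDT21 is a subunit of cleavage factor I, which acts in mRNA 3' end formation. It had 1056, 1177 and 1051 CPM in ZC3H7B-OE and 1391, 1170 and 1364 CPM in control at 6 h, and 203, 185 and 176 CPM in ZC3H7B-OE and 426, 413 and 524 CPM in control at 0 h.

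SLC46A3, a lysosomal transporter, rested on very few reads. It had 57, 44 and 41 reads in ZC3H7B-OE and 42, 41 and 35 reads in control at 6 h. At 0 h it had 1, 1 and 2 reads in ZC3H7B-OE, against 23, 14 and 9 reads in control. Per read sequenced, the 0 h ratio of ZC3H7B-OE over control was 0.0851, with an exact 95% interval of 0.0222 to 0.233 that covers counting error only. Its fitted interaction of 3.78 depends on how such low counts are treated, and its size is not compared with the others.

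**Figure D1:**
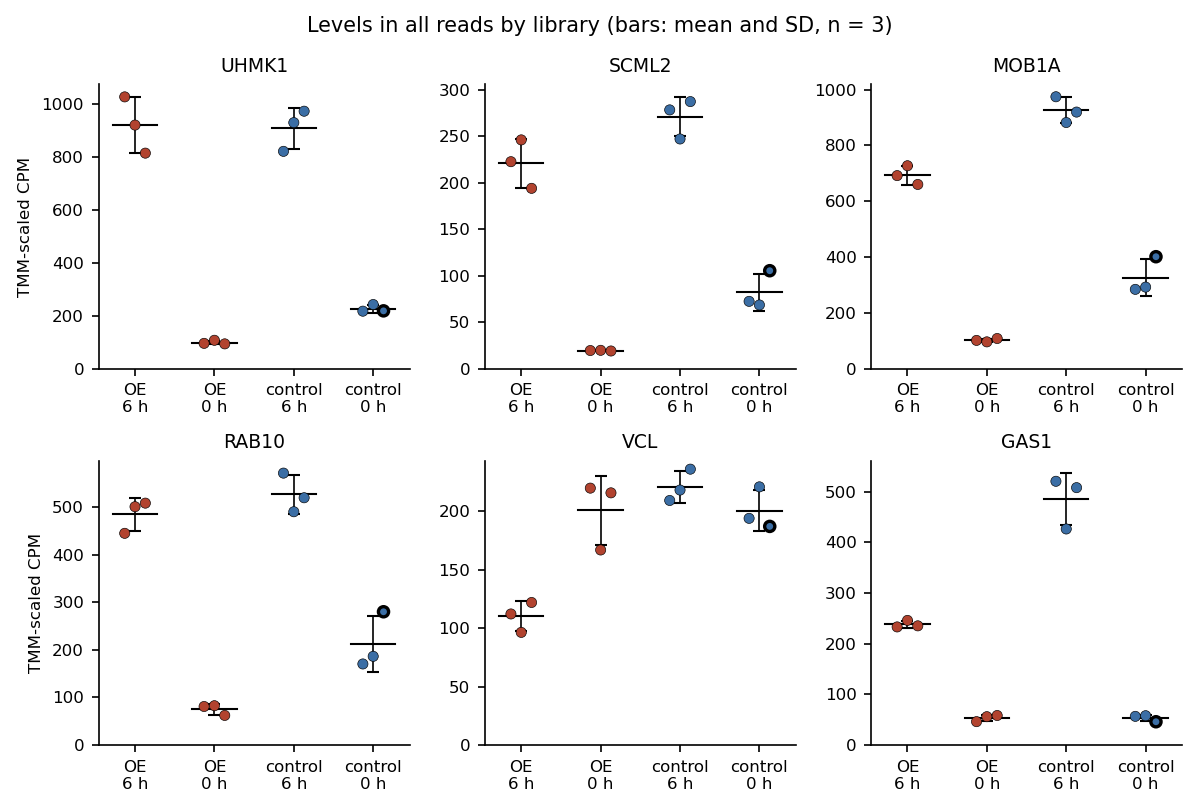
TMM-scaled CPM of 6 genes in each library (points), with mean and SD (bars, n = 3), for ZC3H7B-OE (red) and control (blue) at 6 h and 0 h; the thick outline marks control 0 h replicate 3. UHMK1, SCML2, MOB1A and RAB10 are lower in ZC3H7B-OE at 0 h, and SCML2 and MOB1A are also lower there at 6 h without overlap. VCL and GAS1 are lower in ZC3H7B-OE at 6 h and overlap between the lines at 0 h.

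The 12 libraries at 2 h and 4 h share no sample with the interaction and gave a separate look at the line difference of the 18 genes. At 2 h, 17 of 18 lay lower in ZC3H7B-OE, against 48.0% of all 9478 genes tested, with a median log2 of -0.46. Of the 18, 10 were called lower at 2 h, against 10.4% of all genes tested. At 4 h, 18 of 18 lay lower, against 51.7% of all genes tested, with a median of -0.43. Of the 18, 13 were called lower at 4 h, against 15.3% of all genes tested. None of the 18 was called higher at either time, against 5.28% of all genes at 2 h and 11.7% at 4 h. Genes of low GC3 in general also lay lower in ZC3H7B-OE in these libraries. In the lowest of 5 groups of genes by GC3 the median was -0.23 at 2 h and -0.37 at 4 h. In the next group it was -0.12 and -0.21. These 2 groups held 10 and 7 of the 18, so the difference is not particular to the called genes. PAWR, a pro-apoptotic regulator, gave -1.24 at 2 h and -0.69 at 4 h, and MTPN gave -1.06 and -0.76. ZNF207 was the exception at 2 h with 0.10. These sizes are not compared with those at 0 h, which chose the genes.

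**Figure D2:**
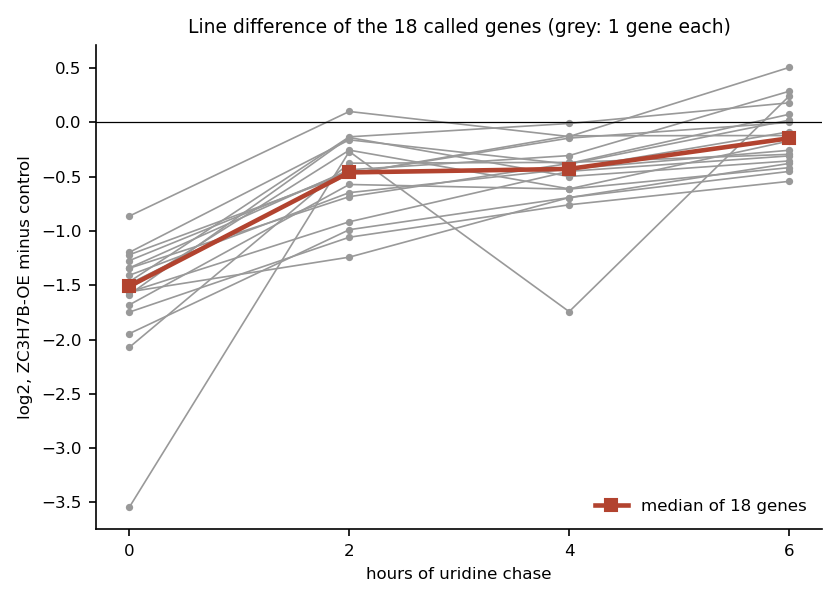
Fitted log2 difference, ZC3H7B-OE minus control, at 0, 2, 4 and 6 h of chase for the 18 called genes (grey lines) and their median (red). The medians are -1.51, -0.46, -0.43 and -0.15; the values at 0 h and 6 h chose the genes, and those at 2 h and 4 h come from other libraries.

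The change of that difference between 2 h and 4 h did not single out the same genes. The interaction over 4 h and 2 h called 22 of 9478 genes (0.232%), 6 above 0 (0.0633%) and 16 below (0.169%), and 0 of the 18 were among them. Of the 18, 12 lay above 0, with a median of 0.13, and over all genes tested 49.6% lay above 0. Leaving out 1 library at a time moved the count of 22 to between 0, without ZC3H7B-OE 4 h replicate 3, and 109, without control 2 h replicate 3.

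Labelled reads of the 18 genes were also examined. Reads with conversions made up a median of 24.0% of a gene's reads in ZC3H7B-OE and 30.2% in control at 6 h, and 94.0% in ZC3H7B-OE and 94.4% in control at 0 h. At 6 h the share was lower in ZC3H7B-OE for 17 of the 18, the exception being HAUS3. For MTPN it was 26.9%, 29.6% and 28.2% in ZC3H7B-OE, against 39.1%, 37.6% and 40.2% in control. For UHMK1 it was 24.7%, 24.3% and 24.2% in ZC3H7B-OE, against 31.3%, 29.4% and 29.6% in control. The shares of both genes were separate between the lines. Over all genes tested, the median share at 6 h was 26.4% in ZC3H7B-OE and 27.9% in control, and the share was lower in ZC3H7B-OE for 4861 of 9580. The 6 h libraries helped choose the 18 genes, and the same read counts enter the share, so it is no separate evidence.

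In labelled reads alone, the interaction called 1 of 8154 genes (0.0123%), and 101 of 8684 (1.16%) without control 0 h replicate 3, 92 above 0 (1.06%) and 9 below (0.104%). None of the 18 passed there with 12 libraries, although all 18 lay above 0, with a median of 1.02 against 0.17 over all genes tested. These reads are a subset of those used above. Over a whole library, the labelled share was 29.6% ± 0.660 in ZC3H7B-OE and 29.9% ± 0.729 in control at 6 h, and 74.8% ± 0.420 in ZC3H7B-OE and 76.7% ± 1.67 in control at 0 h (SD, n = 3 each). Its interaction was 1.66 percentage points and did not pass (two-sided exact permutation test, p = 0.275, where 0.005 is the smallest p that 400 arrangements allow). Line labels were permuted within each time. The test thus takes the lines as alike at each time and does not allow for a line difference shared by both times.

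Without control 0 h replicate 3, the count above 0 grew to 377 genes, and most had the course of the first 18. Of the 377, 342 were called lower in ZC3H7B-OE at 0 h, where 15.1% of all genes were, and 180 were called lower at 6 h, where 16.8% were. Another 39 were called higher at 6 h, where 13.6% were. In 293 the rise over the chase passed in both lines. Over all genes a rise was called for 36.0% in ZC3H7B-OE and for 33.2% in control, and the share called in both was not counted. By sign alone, 334 of the 377 rose in both lines, against 4518 of all 10153 genes tested. The median interaction was 0.81, made of 2.00 in ZC3H7B-OE and 1.14 in control. As for the 18, the 0 h and 6 h values chose the 377, so they describe the set and are no separate evidence. At the threshold, DDX3X was called with an edgeR adjusted p of 0.04999 and PFN2 was not, with 0.0504.

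TWF1 had the smallest adjusted p among genes called in the repeat and not with 12 libraries. It encodes twinfilin, which binds actin monomers. It had 430, 469 and 456 CPM in ZC3H7B-OE and 590, 515 and 579 CPM in control at 6 h, and 73.5, 89.1 and 83.2 CPM in ZC3H7B-OE and 211, 262 and 546 CPM in control at 0 h. The single value of 546 CPM was that of control 0 h replicate 3. The interaction was 1.19 (SE 0.15, edgeR adjusted p = 1.68e-07) without that library and 1.73 (SE 0.36, edgeR adjusted p = 0.0658) with it, so the estimate was larger but no longer passed. NRAS, a Ras GTPase, had a like pattern, with 625, 648 and 1266 CPM in control at 0 h. Its interaction was 0.81 (SE 0.13) in the repeat and 1.24 (SE 0.31) with all 12 libraries.

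Other genes of this set named by smallest adjusted p were CMTM6, which keeps PD-L1 at the cell surface (0.92), SPIN1 (0.90), BCLAF1 (0.77), TRAM1, a part of the protein translocation site of the endoplasmic reticulum (1.01), FOPNL, a centrosomal protein (0.93), LANCL1, a glutathione-binding protein (1.26), TMED10 (0.72) and VMA21, an assembly factor of the vacuolar ATPase (0.82). Each lay lower in ZC3H7B-OE at 0 h. With 12 libraries TRAM1 gave 1.59 and TMED10 gave 1.08, and neither passed (edgeR adjusted p = 0.0803 and 0.0775). BCLAF1 was the only 1 of these above control at 6 h, with a log2 difference of 0.26 (edgeR adjusted p = 0.00574).

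**Figure D3:**
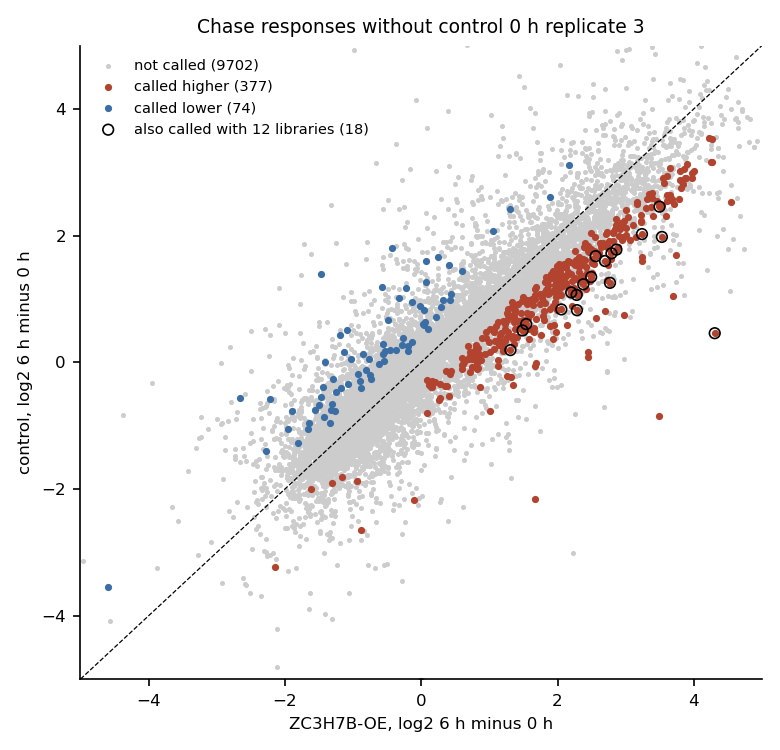
Fitted log2 change from 0 h to 6 h in ZC3H7B-OE (x axis) and in control (y axis) for the genes tested without control 0 h replicate 3; 94 genes lie outside the axes, and the dashed line marks equal change. Most of the 377 genes above 0 (red) rise in both lines and lie below the dashed line, and the 74 genes below 0 (blue) lie above it.

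In 10 genes of the repeat the 2 lines moved opposite ways, each with its own change called. Over all genes tested, 11 had both changes called with opposite signs (0.108%). LANCL1 rose by 0.86 in ZC3H7B-OE and fell by 0.40 in control on the log2 scale. It had 111, 106 and 86.4 CPM in ZC3H7B-OE and 141, 113 and 143 CPM in control at 6 h, and 66.1, 41.5 and 63.2 CPM in ZC3H7B-OE and 166, 191 and 297 CPM in control at 0 h. AK3, a mitochondrial adenylate kinase, rose by 0.41 in ZC3H7B-OE and fell by 0.53 in control. GLO1, the glyoxalase that detoxifies methylglyoxal, rose by 0.20 in ZC3H7B-OE and fell by 0.30 in control. KLHL21, an adaptor of a CUL3 ubiquitin ligase, was the only one of the 10 that fell in ZC3H7B-OE, by 0.27, and rose in control, by 0.27. With 12 libraries none of these 4 was called for the interaction, which was then 1.43 for AK3 (0.94 in the repeat) and 1.10 for GLO1 (0.50 in the repeat). LANCL1 belongs to the genes named by rule, and the other 3 were picked after their values were seen.

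The 74 genes below 0 in the repeat had another course. They differed between the lines mainly at 6 h: 55 of 74 were called lower in ZC3H7B-OE at 6 h, where 16.8% of all genes were, and 9 were called lower and 16 higher at 0 h, where 8.24% of all genes were called higher. For 33 the gap between the lines exceeded 1.5-fold at 6 h only, and for 8 at 0 h only. Among the 377 above 0 the counts were 11 and 259, and over all genes tested the shares were 12.5% and 19.5%. The median interaction of the 74 was -0.77, made of -0.60 in ZC3H7B-OE and 0.18 in control. The 0 h and 6 h values chose these genes too, so their course is a description and no separate evidence.

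VCL had the smallest adjusted p among these. VCL encodes vinculin, which links integrins and cadherins to actin. It had 112, 96.4 and 122 CPM in ZC3H7B-OE, against 209, 218 and 236 CPM in control at 6 h. At 0 h it had 220, 167 and 216 CPM in ZC3H7B-OE and 194, 221 and 187 CPM in control. The lines were separate at 6 h and overlapped at 0 h. The interaction of VCL was -0.98 (SE 0.17, edgeR adjusted p = 8.14e-05) in the repeat and -1.01 (SE 0.22, edgeR adjusted p = 0.0661) with all 12 libraries, where it did not pass.

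GAS1 rose in both lines, less in ZC3H7B-OE. It had 233, 246 and 235 CPM in ZC3H7B-OE and 521, 427 and 508 CPM in control at 6 h, and 46.1, 56.0 and 58.3 CPM in ZC3H7B-OE and 56.6, 57.9 and 45.9 CPM in control at 0 h. Its interaction was -0.95 (SE 0.18, edgeR adjusted p = 0.000331) in the repeat and -1.02 (SE 0.22, edgeR adjusted p = 0.0653) with 12 libraries. RAP2B had 73.1, 56.3 and 56.3 CPM in ZC3H7B-OE and 114, 87.4 and 94.4 CPM in control at 6 h, and 72.9, 60.2 and 46.0 CPM in ZC3H7B-OE and 40.4, 43.1 and 30.1 CPM in control at 0 h. Its interaction of -1.20 in the repeat came with a change of 0.07 in ZC3H7B-OE and 1.27 in control.

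The other genes of this direction named by rule were ZNF526, SP9, LDOC1L, MRTO4, ZFP62, HEG1, FSTL1 and ARL6IP1. With 12 libraries their edgeR adjusted p ran from 0.0661 for ZNF526 to 0.935 for ARL6IP1, and none passed. In the repeat, MRTO4, a ribosome assembly factor, gave -0.57, FSTL1, a secreted glycoprotein, gave -0.49, and HEG1, a membrane protein of endothelial junctions, gave -1.53. ARL6IP1, which shapes the endoplasmic reticulum, showed how far 1 library reached. It had 1191, 1351 and 1391 CPM in ZC3H7B-OE and 2204, 1816 and 1871 CPM in control at 6 h, and 1073, 1174 and 1156 CPM in ZC3H7B-OE and 1285, 1154 and 2397 CPM in control at 0 h. The interaction of ARL6IP1 was -0.08 with the 2397 CPM of control 0 h replicate 3 and -0.50 (SE 0.12, edgeR adjusted p = 0.00483) without it.

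The libraries at 2 h and 4 h were also read for both sets. Of the 74, the ZC3H7B-OE level was the lower one for 40 at 2 h (54.1%) and for 59 at 4 h (79.7%). Over all genes tested these shares were 48.0% and 51.7%. The medians of the 74 were -0.01 and -0.29, and 11 and 26 were called lower, against 10.4% and 15.3% of all genes tested. Another 8 at 2 h and 4 at 4 h were called higher, against 5.28% and 11.7%. For the 377 above 0, 376 were tested at 2 h and 4 h. Of these, 330 lay lower at 2 h (87.8%) and 338 at 4 h (89.9%), with 208 and 204 called lower and 3 and 6 called higher. Genes of low GC3 in general also lay lower in ZC3H7B-OE in these libraries. The 2 lowest of 5 groups by GC3 held 175 and 122 of the 377, so the difference is not particular to them. At 6 h the median labelled share of the 74 was 27.6% in ZC3H7B-OE and 19.0% in control. That of the 377 was 22.9% in ZC3H7B-OE and 29.2% in control, against 26.4% and 27.9% over all genes tested with 12 libraries. The 6 h libraries helped choose both sets, and the same read counts enter the share, so it is no separate evidence.

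Leaving out 1 library at a time showed how far the count depends on single samples. Without control 0 h replicate 1 it was 133 genes and without replicate 2 it was 106. Without any 1 of the other 9 libraries it was 0, with an unadjusted p under 0.05 for 977 to 1293 genes. All 18 genes kept a positive interaction in each of these fits, and in the fits that called 0 genes their edgeR adjusted p ran from 0.0541 to 0.202. Each fit shares most libraries with the one that chose the genes, so the kept sign is no separate evidence. A fit with limma-voom and sample quality weights, which gave control 0 h replicate 3 a weight of 0.132, called 463 genes, 391 above 0 and 72 below, and DESeq2 called 346, 307 above 0 and 39 below.

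**Figure D4:**
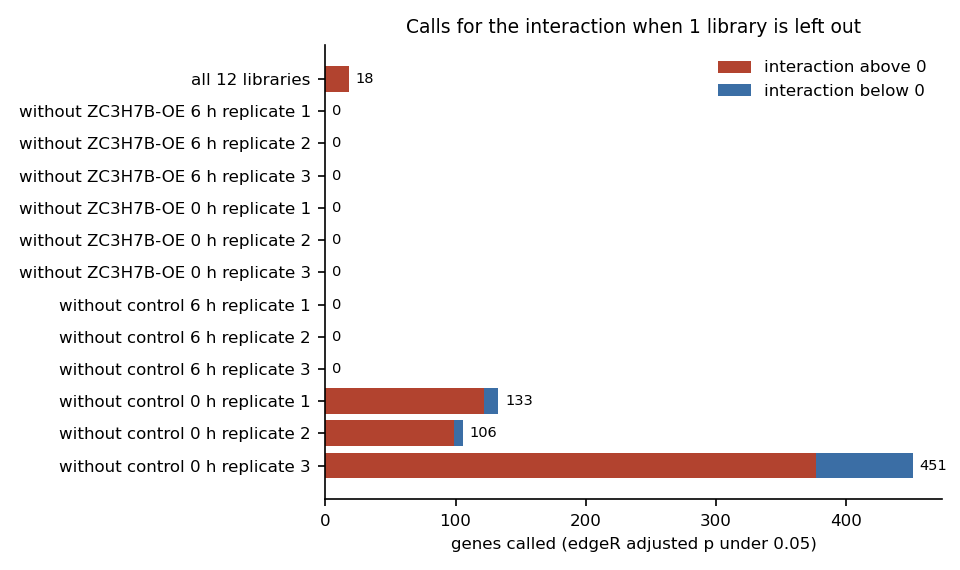
Number of genes called for the interaction (edgeR adjusted p under 0.05) with all 12 libraries and without each library in turn, split into values above 0 (red) and below 0 (blue). The count is 18 with all libraries, 451 without control 0 h replicate 3, and 0 without any library of the other 3 groups.

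Gene lists of pathways and complexes were also counted. With 12 libraries the called members were MOB1A in the list of Hippo genes and ZNF207 among ZNF genes, that is 2 of 1259 list genes tested (0.159%, against 0.188% of all genes). In the repeat 51 of 1308 were called (3.9%, against 4.44% of all genes), 37 above 0 and 14 below. Both shares are near those of all genes and are no result about the lists. Apart from MOB1A and ZNF207, the other 49 did not pass with 12 libraries, where their edgeR adjusted p ran from 0.0661 to 0.764, and the values below are those of the repeat. The list of COPII coat and cargo receptor genes, which carry proteins out of the endoplasmic reticulum, had 5 of 18 members called, all above 0, or 27.8%, against 3.71% of all genes above 0. Its median was 0.30 in the repeat, against 0.07 over all genes tested. The 5 were LMAN1 (1.00), SAR1B (0.85), MCFD2 (0.75), TMED10 (0.72, or 1.08 with 12 libraries) and SAR1A (0.51). With 12 libraries 11 of the 18 members lay above 0, against 57.6% of all genes, and 0 were called. The fit on 24 libraries, which includes the 12 libraries, called 5 members and is not independent. This list was singled out after the values were seen, as the one with the highest share called.

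LMAN1 and MCFD2 form a cargo receptor for coagulation factors. LMAN1 had 204, 190 and 194 CPM in ZC3H7B-OE and 266, 254 and 265 CPM in control at 6 h, and 65.5, 46.6 and 58.8 CPM in ZC3H7B-OE and 155, 153 and 109 CPM in control at 0 h. MCFD2 had 446, 427 and 423 CPM in ZC3H7B-OE and 588, 499 and 588 CPM in control at 6 h, and 195, 200 and 189 CPM in ZC3H7B-OE and 427, 430 and 602 CPM in control at 0 h. Both were lower in ZC3H7B-OE in every library at both times. SAR1B, the GTPase that starts coat assembly, had 444, 424 and 361 CPM in ZC3H7B-OE and 344, 358 and 334 CPM in control at 6 h, and 93.4, 127 and 96.5 CPM in ZC3H7B-OE and 152, 177 and 320 CPM in control at 0 h. It lay above control in all ZC3H7B-OE libraries at 6 h, where the test did not pass (log2 0.21, edgeR adjusted p = 0.0936).

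The lists of RNA metabolism are read against 3.71% of all genes called above 0 and 0.729% below. Of 18 genes of CCR4-NOT and deadenylation, the deadenylase subunits CNOT7 (0.91) and CNOT6L (0.98) were called above 0 and BTG2, which recruits the deadenylase, below 0 (-0.91). Of 25 genes listed under decapping, repression of translation or ribosome quality control, the helicase DDX6 (0.51) and the decapping factor DCP1A (0.66) were called above 0. Of 31 SR proteins and hnRNPs, the splicing regulators TRA2B (0.78), HNRNPDL (0.76) and SRSF1 (0.50) were called above 0. None of 15 microRNA pathway genes, 16 of nonsense-mediated decay and 18 of the exosome and SKI complex was called, and with lists of this size 0 called is near the share of 4.44% of all genes. In the m6A list METTL14, a subunit of the writer complex, was the only called member (1.00).

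The stress and growth lists are read against the same shares. Of 36 genes of the integrated stress response, CHAC1 (-1.05), a glutathione-degrading enzyme, and DDIT4 (-0.58), an inhibitor of mTORC1, were called below 0. CHAC1 had 5.29, 4.20 and 4.72 CPM in ZC3H7B-OE and 15.7, 18.5 and 10.1 CPM in control at 6 h, and 110, 122 and 117 CPM in ZC3H7B-OE and 187, 161 and 197 CPM in control at 0 h. Of 37 mRNAs listed as immediate early or short-lived, ATF3 (-0.46) and BTG2 were called below 0 and ARC (1.08) above 0. ATF3, a stress-induced transcription factor, had 254, 245 and 281 CPM in ZC3H7B-OE and 658, 576 and 597 CPM in control at 6 h, and 304, 297 and 298 CPM in ZC3H7B-OE and 560, 479 and 819 CPM in control at 0 h. ATF3 was lower in ZC3H7B-OE in every library at both times, and with 12 libraries its interaction was -0.19 (edgeR adjusted p = 0.764). Of 34 ribosome biogenesis genes, MRTO4 and RRS1 (-0.84) were called below 0 and the helicase DDX21 (0.56) above 0. Of 22 heat shock and chaperone genes, HSPA4L (0.96), CACYBP (0.70) and DNAJA2 (0.49) were called above 0. With 12 libraries CACYBP gave 1.28 (edgeR adjusted p = 0.129) and DNAJA2 gave 0.82 (edgeR adjusted p = 0.168). Members named from the lists in the repeat were picked after their values were seen.

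Several list medians moved when control 0 h replicate 3 was left out. The 70 cytosolic ribosomal protein genes tested had a median interaction of 0.69 with 12 libraries, and 73 had 0.18 without that library. The respiratory chain list had 0.66 and 0.18, and the chaperonin and prefoldin list 0.62 and 0.14. None of the ribosomal protein genes was called in either fit. The 16 ERK feedback genes had -0.38 in both fits, with 0 called.

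GC3 ordered the interaction across genes. Of 9580 genes, 9002 had a value. In 5 groups of like size from the lowest to the highest GC3, the median interaction was 0.45, 0.29, 0.10, -0.05 and -0.12 with 12 libraries, and the groups held 10, 7, 1, 0 and 0 of the 18 called genes. Without control 0 h replicate 3 the medians were 0.24, 0.15, 0.02, -0.01 and 0.00. The 377 genes above 0 had 175, 122, 49, 16 and 7 members in these groups, and the 74 below 0 had 4, 7, 19, 17 and 25. Across genes, Spearman's correlation of GC3 with the interaction was -0.35 (n = 9002) and -0.17 (n = 9533) without that library, given as a description of genes that share the same libraries.

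Both lines carried this order in their chase responses. In the repeat, the group of lowest GC3 had a median log2 change of 1.53 in ZC3H7B-OE and 1.24 in control, and the group of highest GC3 had -0.77 in ZC3H7B-OE and -0.72 in control. The group of lowest GC3 took 19.1% to 20.1% of a library's reads in ZC3H7B-OE and 22.9% to 23.2% in control at 6 h, and 8.11% to 8.47% in ZC3H7B-OE and 11.8% to 13.7% in control at 0 h. Control 0 h replicate 3 held the 13.7%, against 11.8% in each of its 2 replicates. Over 4 h and 2 h the order of the 5 groups was the opposite, with medians of -0.13, -0.05, -0.01, 0.07 and 0.13. Whether base composition acts on the cells' mRNA or on library preparation was not tested.

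Other sequence features of the called genes were also read. The median 3' UTR of the 18 was 3249.5 bases, from 692 for ZNF207 to 11257 for FZD3, against 1239 over all genes tested. It held a median of 35.1% T, from 32.4% to 37.8%, against 29.98% over all genes. For the 377 genes of the repeat above 0 the median GC3 was 42.3% and the 3' UTR held 34.4% T, and for the 74 below 0 they were 67.7% and 28.6%, against 59.7% and 29.9% over all genes tested there. The 3' UTR content of T followed the interaction about as closely as GC3, with Spearman's correlations of 0.35 with 12 libraries (n = 8867) and 0.16 without control 0 h replicate 3 (n = 9378). The length of the 3' UTR had -0.01 with 12 libraries.

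A fit that took a smooth trend on GC3 out of each library gave a more even split. It was chosen after the data were seen. Without control 0 h replicate 3 it called 234 of 9533 genes, 137 above 0 and 97 below, against 377 and 74 without the correction, and 192 genes were shared, which is 42.6% of the 451 and 82.1% of the 234. All 18 genes were still called in that fit, with interactions of 0.71 to 3.63. UHMK1 gave 1.04, SCML2 1.31 and MOB1A 0.84, and VCL gave -1.10. With all 12 libraries the corrected fit called 1 gene, and the 18 ran from 0.74 to 3.42.

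**Figure D5:**
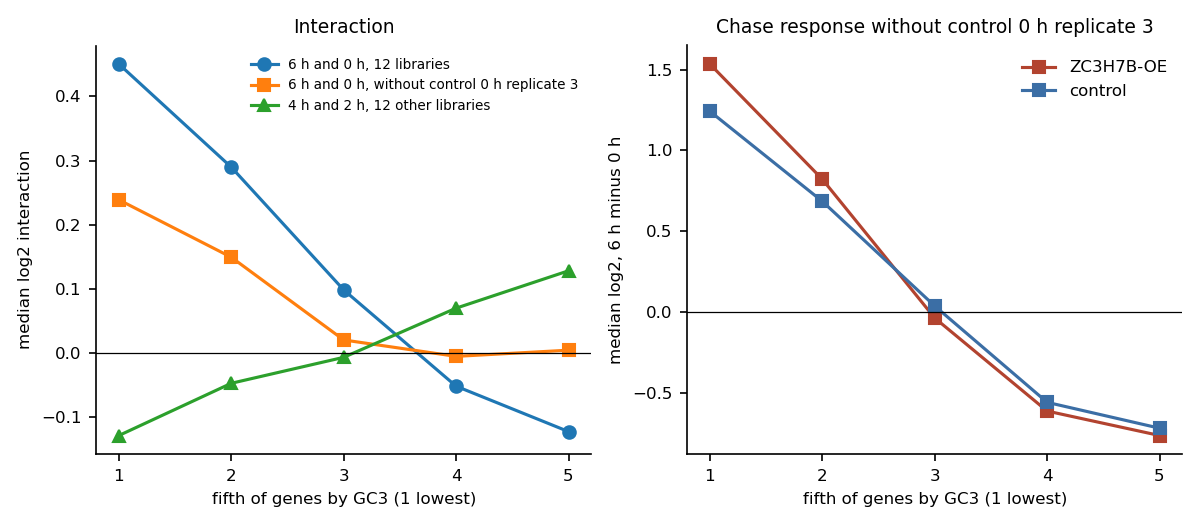
Left, median log2 interaction in 5 groups of genes by GC3 for 6 h and 0 h with 12 libraries, for 6 h and 0 h without control 0 h replicate 3, and for 4 h and 2 h in other libraries; right, median log2 change from 0 h to 6 h in ZC3H7B-OE and control without that library. The interaction falls from 0.45 to -0.12 over the groups with 12 libraries, while the medians of 4 h and 2 h run the other way.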

How the data were processed

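The authors deposited 2 tables of whole-number read counts per gene for the 24 libraries, for all reads and for reads with T>C conversions, not normalized. The submitters' processing notes name fastp and the build GRCh37, while for the aligner, caller, counting rule and use of strand nothing is given in the sources used here. Overlapping genes and close copies are therefore uncertain. Of 19692 entries, 450 name several genes, and these hold 2.30% to 3.69% of a library's reads. They stayed in library sizes and tests.

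The 12 libraries at 0 h and 6 h entered 1 fit in edgeR 4.0.16 under R 4.3.3 (robust quasi-likelihood, 1 mean per group, TMM scaling, filterByExpr with a minimum count of 10). P-values carry a Benjamini-Hochberg adjustment over all genes tested, with a threshold of 0.05, and an SE is the log2 value divided by the root of F. Labelled reads were scaled by library sizes and TMM factors taken from all reads. The libraries at 2 h and 4 h were fitted on their own. DESeq2 1.42.0 and limma 3.58.1 were alternatives. Only the edgeR interaction fit on 12 libraries was run on simulated data, with the same spread in every library. No simulated library stood apart as control 0 h replicate 3 does, so that case was not tested. GC3 and 3' UTRs came from GENCODE v29, matched by Ensembl gene ID, and no coordinates were used because that annotation is on another build.

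Separate cultures are not stated in the labels, so p-values measure only how these libraries vary, possibly for technical reasons. No pair of replicates agreed within sampling noise (chi-square per degree of freedom 2.32 to 34.8). Depth was 1502068 to 3676254 reads per library, and intervals cover counting error only.

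Named genes are ZC3H7B and ZC3H7A, up to 8 called genes at each end of the interaction (single genes, mean log2 CPM 4 or more), 4 more per direction by adjusted p, members of lists with at least 3 called, and, where fewer than 8 were called in a direction, the genes of smallest p up to 5. Genes named from the repeat were taken by smallest adjusted p. The comparison, lists and names were chosen with earlier results of these data known.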

Additional observations from a re-analysis of the deposited data

Results flagged for a closer look

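The 18 genes whose chase response differed between the lines by the test of the interaction are listed with their log2 values, ZC3H7B-OE minus control. Those with the largest values were SLC46A3 at 3.78, on 1 or 2 reads per ZC3H7B-OE library at 0 h, SCML2 at 1.78, TSPAN12 at 1.65, FZD3 at 1.63, HAUS3 at 1.57 and RRP15 at 1.42. In the middle were ZNF207 at 1.37, RAB10 at 1.37, TROVE2 at 1.36, PTPLB at 1.32, MOB1A at 1.26 and TMEM123 at 1.25. The smallest were C5orf24 at 1.23, UBQLN1 at 1.22, UHMK1 at 1.22, MTPN at 1.20, PAWR at 1.11 and NUDT21 at 1.02. Groups of 3 libraries were not searched for single outlying values.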

How the results depend on the processing

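The count of 18 genes was 18 with entries naming several genes left out. It became 4 with DESeq2 size factors, 359 with no filter on low counts, 346 with DESeq2, 463 with limma-voom and quality weights, 253 in the fit on 24 libraries and 1 with the GC3 trend taken out. With 1 library left out it ran from 0 to 451. Without control 0 h replicate 3, it was 431 with DESeq2 size factors, 443 with no filter, 325 with a replicate block, 517 with DESeq2, 438 with limma-voom and 234 with the GC3 trend taken out, and these settings were added after seeing the data. The replicate block with all 12 libraries left 0 genes called by edgeR, with 1131 at an unadjusted p under 0.05. Same-numbered libraries deviated with correlations from -0.14 to 0.11, and 0 of 12 correlated best with their own number, so the numbers were not taken as pairs. Labelled reads gave 1 gene, 26 with no filter, 8 with DESeq2, 57 with limma-voom, 6 on 24 libraries, 0 with the replicate block (edgeR, 588 at an unadjusted p under 0.05), and 0 to 101 with 1 library left out. The interaction over 4 h and 2 h gave 22 genes, 64 with no filter, 58 with DESeq2, 97 with limma-voom, 0 on 24 libraries (edgeR, 793 at an unadjusted p under 0.05), and 0 to 109 with 1 library left out. The 2 list members called became 51 without control 0 h replicate 3 and 25 on 24 libraries. The counts of chase responses, 5977 in ZC3H7B-OE and 5728 in control, stayed within 1.5 times under every alternative, with 5323 to 6907 and 5124 to 6315 when 1 library was left out. The labelled share interaction of 1.66 points ran from 1.04 to 2.61 with 1 library left out and did not pass in any setting. The 18 genes stayed above 0 in all 468 values computed, of which 212 did not pass. These fits reuse libraries that chose the genes, so the shared sign is no separate evidence. ZC3H7B, at -0.21 and not called, ran from -0.373 to 0.0144 with 1 library left out, the upper end being without control 0 h replicate 3. There it was 0.0231 with the GC3 trend taken out, 0.0162 with DESeq2 size factors, 0.0325 with no filter, 0.0144 with DESeq2 and 0.0159 with limma-voom. ZC3H7A, at 0.26 and not called, turned to -0.12 with the GC3 trend taken out. The causes of these shifts were not tested. At 0 h, genes with a few reads per library, such as SLC46A3, cannot be sized.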
